A study of Mus musculus with 30 samples.

Results

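The distal nephron and collecting duct genes described here are 30 genes of 19468 rows in the kidney expression table and, for 29 of them, of 19685 rows in the pancreas table. They were taken from a list of names and not from measured values. By the textbook site of expression 7 belong to the thick ascending limb of the loop of Henle, 8 to the distal convoluted and connecting tubule, 10 to the principal cells of the collecting duct and 5 to its intercalated cells. Each was measured as FPKM, the fragments mapped to a gene per kilobase of its transcript and scaled to the mapped fragments of the library, so that levels of different genes can be set side by side.

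The libraries came from C57BL/6 mice that had drunk 0.2 mg/ml doxycycline for 7 days, with no undosed animals among them. The drug induces i4F, a cassette of the reprogramming factors Oct4, Sox2, Klf4 and Myc. Kidney libraries came from i4F p53 KO, i4F Ink4a/Arf KO and i4F mice, the last with both tumour suppressor loci intact. Pancreas libraries are labelled p53 KO (without naming i4F), i4F Ink4a/Arf KO and i4F. Each of the 6 groups holds 5 libraries, 1 mouse each, and animal ages were not used here. All groups thus received the drug. The kidney tests, and the pancreas test of Ink4a/Arf KO, ask what the gene losses add to the induced cassette; whether the pancreas libraries labelled p53 KO carry the cassette is not given by their label.

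The segments downstream of the proximal tubule adjust the final urine. The thick ascending limb takes up salt without water and makes uromodulin, the main protein of normal urine. The distal convoluted tubule and connecting tubule reabsorb salt, calcium and magnesium under hormonal control. In the collecting duct, principal cells take up sodium through the epithelial channel and water through aquaporins, and intercalated cells move acid and base with proton pumps and anion exchangers.

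Promoters are shown for Egf and Slc12a1 (the Na-K-2Cl cotransporter NKCC2), the thick ascending limb members with the smallest p in p53 KO against i4F kidneys. Each window runs 250 bases before to 50 bases after a start in RefSeq (GRCm38.p6), where 21 of the 30 members matched. The Egf window at the start of the whole gene is chr3:129755273-129755572 on the minus strand, and the Slc12a1 window is chr2:125152350-125152649 on the plus strand. Both are written 5′ to 3′ on the gene's strand, and capitals mark motif letters found on either strand.
Egf: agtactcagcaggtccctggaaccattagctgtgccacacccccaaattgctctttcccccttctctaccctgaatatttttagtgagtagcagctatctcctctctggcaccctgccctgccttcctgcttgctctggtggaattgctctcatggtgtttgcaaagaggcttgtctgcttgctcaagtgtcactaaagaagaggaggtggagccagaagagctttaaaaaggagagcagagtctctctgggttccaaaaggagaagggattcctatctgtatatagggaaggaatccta
Slc12a1: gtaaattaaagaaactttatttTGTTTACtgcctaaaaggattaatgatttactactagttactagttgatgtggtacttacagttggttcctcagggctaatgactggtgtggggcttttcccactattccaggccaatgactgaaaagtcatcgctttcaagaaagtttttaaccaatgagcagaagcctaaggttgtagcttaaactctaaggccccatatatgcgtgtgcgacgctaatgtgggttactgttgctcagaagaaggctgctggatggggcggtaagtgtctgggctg
The Slc12a1 capitals are the reverse complement of GTAAACA, a forkhead motif. GTAAACA stood in a window of 3 of 21 members (Slc12a1, Egf and Avpr2) and in 3.65% of all 32851 windows. A member such as Egf can have several windows, so this share of members cannot be compared with the share of windows. The Egf match is in the window of another start inside the gene, chr3:129725037-129725336, so the Egf sequence shown has no capitals. A match is a description of letters only.

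In the kidneys the members were abundant. Of the 30, 26 measured 1 FPKM or more in every one of the 15 libraries, and 6 had a kidney median above 100 FPKM. Fxyd2, which modulates the sodium pump, had the highest median (2937 FPKM; 1839 to 3928), and Umod, uromodulin, came next (1297 FPKM; 505 to 2985). Egf, the urinary growth factor of the distal nephron, followed with a median of 206 FPKM, and Slc12a3, the thiazide-sensitive cotransporter, with 170.2 FPKM. Slc12a1 (132 FPKM) and Aqp2, the vasopressin-regulated water channel (116 FPKM), stood below them. The ranges of these 4 genes overlapped, so their order is not resolved by the spread between libraries. The lowest were Trpm6, a magnesium channel (2.03 FPKM), and Elf5, an epithelial ETS factor (0.51 FPKM), which was below the test filter of 1 FPKM in at least 5 kidney libraries.

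Members differed in how far they spread over the 15 kidneys. The most even were Scnn1g and Fxyd2, whose highest library was 2.1 and 2.14 times the lowest. Aqp4, a basolateral water channel, spanned 0.0766 to 27.0 FPKM, and Pvalb, a calcium buffer of the early distal convoluted tubule, spanned 0.261 to 36.5 FPKM. Aqp4 and Scnn1g, at opposite ends of this range, are both principal cell genes.

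The pancreas served as contrast. Of the 29 members in both tables, 20 had a lowest kidney value above their highest pancreas value, and 15 stayed under 1 FPKM in all 15 pancreas libraries. Kcnj1, the renal potassium channel ROMK, reached at most 0.0585 FPKM in pancreas, against at least 21.7 FPKM in kidney. The 9 others overlapped between the tissues. Among them Ptger3, the EP3 prostaglandin receptor, measured 15.02 to 89.3 FPKM in pancreas, against 4.47 to 49.9 FPKM in kidney. Sostdc1, a secreted BMP and Wnt antagonist, and Egf were also present in most pancreases, with medians of 11.03 and 5.61 FPKM. The tables were made separately, so levels are set side by side with no test.

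**Figure D1:**
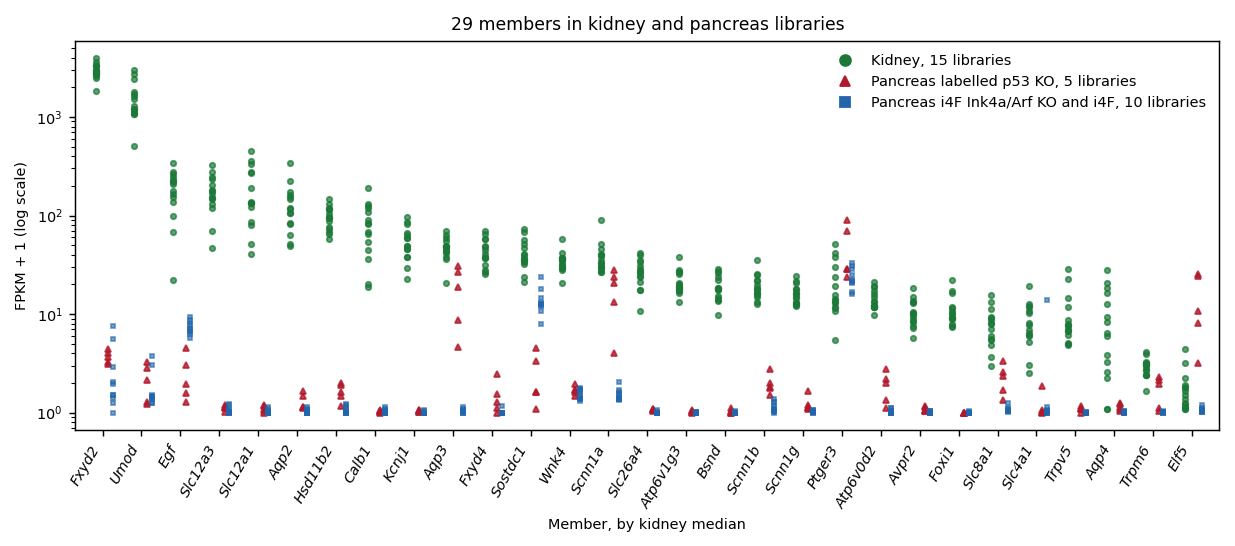
FPKM + 1 (log scale) of the 29 members in both tables, each point 1 library, members ordered by kidney median. Kidney points lie far above pancreas points for most members, and Aqp3, Scnn1a and Elf5 are high in the 5 pancreas libraries labelled p53 KO alone among pancreas groups.

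Libraries were checked before use. Trp53 measured 7.04 ± 2.12 FPKM in kidney p53 KO, 15.9 ± 1.90 FPKM in kidney i4F Ink4a/Arf KO and 16.4 ± 2.199 FPKM in kidney i4F (SD, n = 5 each). In the pancreas it was 15.6 ± 7.12 FPKM in the libraries labelled p53 KO and 3.40 ± 2.14 FPKM in i4F, so these are named below by their label. Cdh16, a cadherin of tubule epithelium, measured 189.6 to 340.0 FPKM in every kidney. Xist and Ddx3y levels mark Ink4a/Arf KO replicate 1 and i4F replicates 4 and 5 of the kidney as female and all p53 KO kidneys are male. In the pancreas they mark Ink4a/Arf KO replicate 1 and i4F replicates 3, 4 and 5 as female. The pancreas libraries labelled p53 KO held 2.87 to 15.2 FPKM of Ddx3y and at most 0.856 FPKM of Xist. Sex is thus unevenly spread over the groups in both tissues. Clps, a pancreatic enzyme cofactor, exceeded 100 FPKM in kidney p53 KO replicates 2, 3 and 4 and i4F replicate 5. The totals of counts were not used, so the depth behind single values is unknown beyond the mapped reads stated for each sample.

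The comparison of i4F p53 KO with i4F kidneys asks whether loss of p53 during reprogramming was accompanied by a change in distal nephron transcripts. No member passed the test. Of 12431 genes tested, 32 were called (0.257%), and 0 of the 29 tested members. In limma, 10 members reached an unadjusted p under 0.05, while 13.2% of all tested genes did. With the Xist level as a covariate, 6 of 29 members and 3019 of 12431 genes reached it. Among males alone these numbers were 6 of 29 and 2438 of 12145. Without the libraries above 100 FPKM of Clps they were 6 of 29 and 2606 of 12150. In these fits the share of members was close to that of all genes or below it. With any 1 library left out the share of members stayed larger, at 5 to 13 of 29. The estimate was negative for 24 of 29 members, against 44.6% of all genes, and the middle estimate (log2 fold change) was -0.41 among members and 0.03 among all genes. The 7 thick ascending limb genes were all lower in p53 KO kidneys by estimate (median -0.82), as were 7 of 8 distal convoluted and connecting tubule genes (-0.33), 5 of 9 principal cell genes (-0.32) and 5 of 5 intercalated cell genes (-0.23). These are counts and medians of estimates on the log2(FPKM + 1) scale and not calls. In whole tissue, fewer cells of a type and less RNA per cell cannot be told apart.

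Among thick ascending limb genes, Egf had the smallest p. Its gene lies on chromosome 3, 129677565 to 129755316 (minus strand, GRCm38, the sequence of mm10). It measured 21.4, 178, 97.8, 67.2 and 153 FPKM in the 5 p53 KO kidneys, 266, 164, 135, 228 and 206 FPKM in the Ink4a/Arf KO kidneys and 222, 278, 219, 244 and 341 FPKM in the i4F kidneys. Every p53 KO kidney lay below every i4F kidney, and replicate 1 was the lowest of all. The log2 fold change was -1.62 (SE 0.43), which missed the threshold (limma, adjusted p = 0.108). Without p53 KO replicate 2 it was -1.90 and passed (limma, adjusted p = 0.0441). Across the alternatives tried, the adjusted p ran 0.00948 to 0.261.

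Slc12a1 (chromosome 2, 125152505 to 125230002, plus strand) measured 50.5, 132, 40.0, 85.4 and 79.2 FPKM in p53 KO kidneys, 266, 138, 449, 132 and 354 FPKM in Ink4a/Arf KO kidneys and 132, 277, 122, 188 and 331 FPKM in i4F kidneys. Of the 5 p53 KO kidneys 4 lay below every i4F kidney, and replicate 2 overlapped. The difference of -1.44 (SE 0.40) did not pass (limma, adjusted p = 0.130). Umod averaged 1055 ± 361 FPKM in p53 KO and 1660 ± 482 FPKM in i4F kidneys (SD, n = 5 each; limma, adjusted p = 0.377). Kcnj1, which returns potassium to the lumen for the cotransporter, averaged 36.1 ± 11.1 FPKM in p53 KO and 64.0 ± 19.4 FPKM in i4F kidneys (limma, adjusted p = 0.196). Of the other thick ascending limb members, Bsnd, the barttin subunit of chloride channels, had a difference of -0.41, Ptger3 of -0.82 and Sostdc1 of -0.61.

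**Figure D2:**
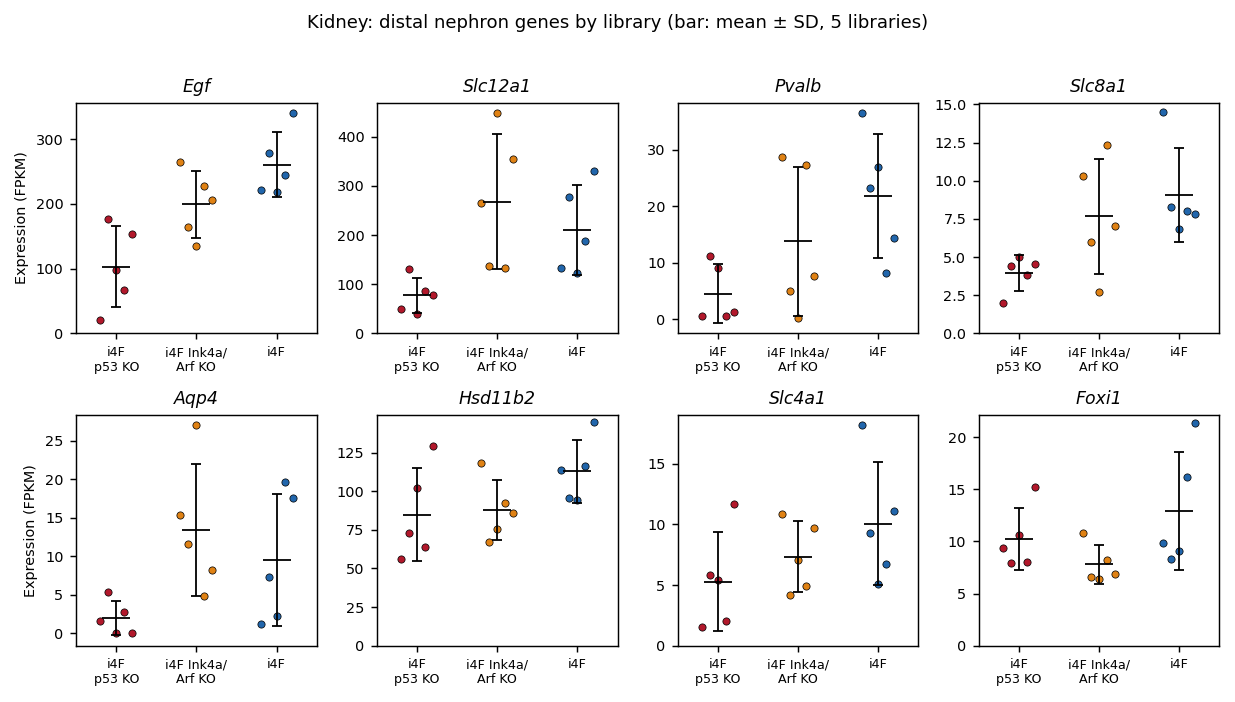
FPKM of 8 members in the 15 kidney libraries, 2 from each nephron role, with points for libraries and bars for mean ± SD of 5. Egf and Slc8a1 of p53 KO kidneys lie below all i4F kidneys, and the other 6 genes overlap between these groups.

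In the distal convoluted and connecting tubule, Pvalb (chromosome 15, 78191114 to 78206400, minus strand) measured 0.498, 11.2, 9.09, 0.599 and 1.18 FPKM in p53 KO kidneys, 28.7, 5.00, 0.261, 27.2 and 7.69 FPKM in Ink4a/Arf KO kidneys and 36.5, 23.1, 26.9, 8.12 and 14.3 FPKM in i4F kidneys. It was near 1 FPKM or below in 3 p53 KO kidneys and in 1 Ink4a/Arf KO kidney, and it overlapped between groups. Its difference of -2.49 between p53 KO and i4F was the largest estimate among members, with an SE of 0.84 (limma, adjusted p = 0.207).

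Slc8a1, the sodium-calcium exchanger of the basolateral membrane (chromosome 17, 81373105 to 81738377, minus strand), measured 1.98, 4.42, 5.01, 3.84 and 4.57 FPKM in p53 KO kidneys, 10.3, 5.99, 2.68, 12.3 and 7.03 FPKM in Ink4a/Arf KO kidneys and 14.5, 8.26, 6.85, 8.04 and 7.79 FPKM in i4F kidneys. All p53 KO values lay below all i4F values. With Egf it made 2 of 29 members without overlap in that direction, against 1.65% of all genes. The difference was -1.02 (SE 0.31; limma, adjusted p = 0.161).

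The other genes of this stretch were less uniform. Calb1, the calcium-binding protein calbindin, averaged 56.1 ± 43.6 FPKM in p53 KO and 106 ± 48.0 FPKM in i4F kidneys (limma, adjusted p = 0.385). Slc12a3 averaged 175 ± 93.2 FPKM in p53 KO and 210.1 ± 56.4 FPKM in i4F kidneys. Trpv5, the apical calcium channel, had the only positive estimate of the 8 (0.74, SE 0.42), and p53 KO replicates 1 and 4 held 21.6 and 27.4 FPKM of it, against 3.89 to 13.6 FPKM in i4F kidneys. Both libraries were thus high in Trpv5 and low in Pvalb. Wnk4, a kinase that sets cotransporter activity, Trpm6 and Fxyd2 had estimates of -0.18, -0.19 and -0.28.

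In principal cells, Aqp4 (chromosome 18, 15389496 to 15410982, minus strand) measured 1.57, 5.37, 0.0847, 2.80 and 0.0766 FPKM in p53 KO kidneys, 15.4, 11.6, 27.0, 4.93 and 8.28 FPKM in Ink4a/Arf KO kidneys and 1.22, 7.27, 2.27, 19.6 and 17.6 FPKM in i4F kidneys. It was nearly absent in p53 KO replicates 3 and 5, and the i4F kidneys were split between low and high values. The high i4F values, 19.6 and 17.6 FPKM, were those of the females of the group, and all p53 KO kidneys are male. The difference of -1.66 (SE 0.67) did not pass (limma, adjusted p = 0.298). Hsd11b2 (chromosome 8, 105518755 to 105523988, plus strand), which keeps cortisol-like steroids off the mineralocorticoid receptor, measured 56.2, 72.8, 102, 64.2 and 129 FPKM in p53 KO kidneys, 118, 67.2, 75.6, 92.3 and 86.1 FPKM in Ink4a/Arf KO kidneys and 113, 95.5, 94.2, 116 and 145 FPKM in i4F kidneys. The groups overlapped (-0.46, SE 0.21; limma, adjusted p = 0.378).

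The 3 subunits of the epithelial sodium channel had positive estimates in p53 KO kidneys, in contrast to the aquaporins Aqp3 and Aqp4. Scnn1a was 0.22, Scnn1b 0.07 and Scnn1g 0.20, all with adjusted p of 0.648 or more by limma. With 1 library left out, the lowest estimates were -0.05 for Scnn1a, -0.11 for Scnn1b and -0.07 for Aqp2. Aqp2 averaged 117 ± 46.8 FPKM in p53 KO and 106 ± 37.0 FPKM in i4F kidneys, a difference of 0.10 (SE 0.47), and Aqp3 of the basolateral membrane had -0.32. Avpr2, the vasopressin receptor, had -0.46, and Fxyd4, a sodium pump regulator, -0.47. Elf5, which was not tested, averaged 0.300 ± 0.229 FPKM in p53 KO and 0.566 ± 0.366 FPKM in i4F kidneys.

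In intercalated cells, Slc4a1, the anion exchanger of acid-secreting cells and also band 3 of red cells (chromosome 11, 102348824 to 102366203, minus strand), measured 1.52, 5.83, 5.37, 2.07 and 11.7 FPKM in p53 KO kidneys, 10.8, 4.15, 7.10, 4.94 and 9.69 FPKM in Ink4a/Arf KO kidneys and 18.2, 9.26, 5.07, 6.71 and 11.1 FPKM in i4F kidneys. The groups overlapped (-0.94, SE 0.42; limma, adjusted p = 0.344). The same p53 KO kidneys, replicates 1 and 4, were lowest in Slc4a1 and in Alas2, an enzyme of red cell precursors (1.94 and 2.81 FPKM, against 5.74 to 11.1 FPKM in i4F kidneys). In p53 KO replicate 5 Alas2 was also low, at 4.40 FPKM, while Slc4a1 was at 11.7 FPKM. Ink4a/Arf KO replicate 1 had the highest Alas2 of all kidneys, 45.9 FPKM, with Slc4a1 at 10.8 FPKM. The part of red cells in the Slc4a1 values was not tested. Foxi1 (chromosome 11, 34204338 to 34208089, minus strand), the forkhead factor that intercalated cells require, measured 9.35, 7.88, 10.6, 8.01 and 15.2 FPKM in p53 KO kidneys, 10.8, 6.58, 6.43, 8.22 and 6.86 FPKM in Ink4a/Arf KO kidneys and 9.83, 8.30, 9.05, 16.2 and 21.4 FPKM in i4F kidneys. The 2 highest i4F values belong to the 2 females of the group, and among males the Foxi1 estimate was 0.12 in place of -0.26 (limma, adjusted p = 0.714 and 0.677). Slc26a4, the anion exchanger pendrin, and the proton pump subunits Atp6v1g3 and Atp6v0d2 had estimates of -0.23, -0.15 and -0.07.

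**Figure D3:**
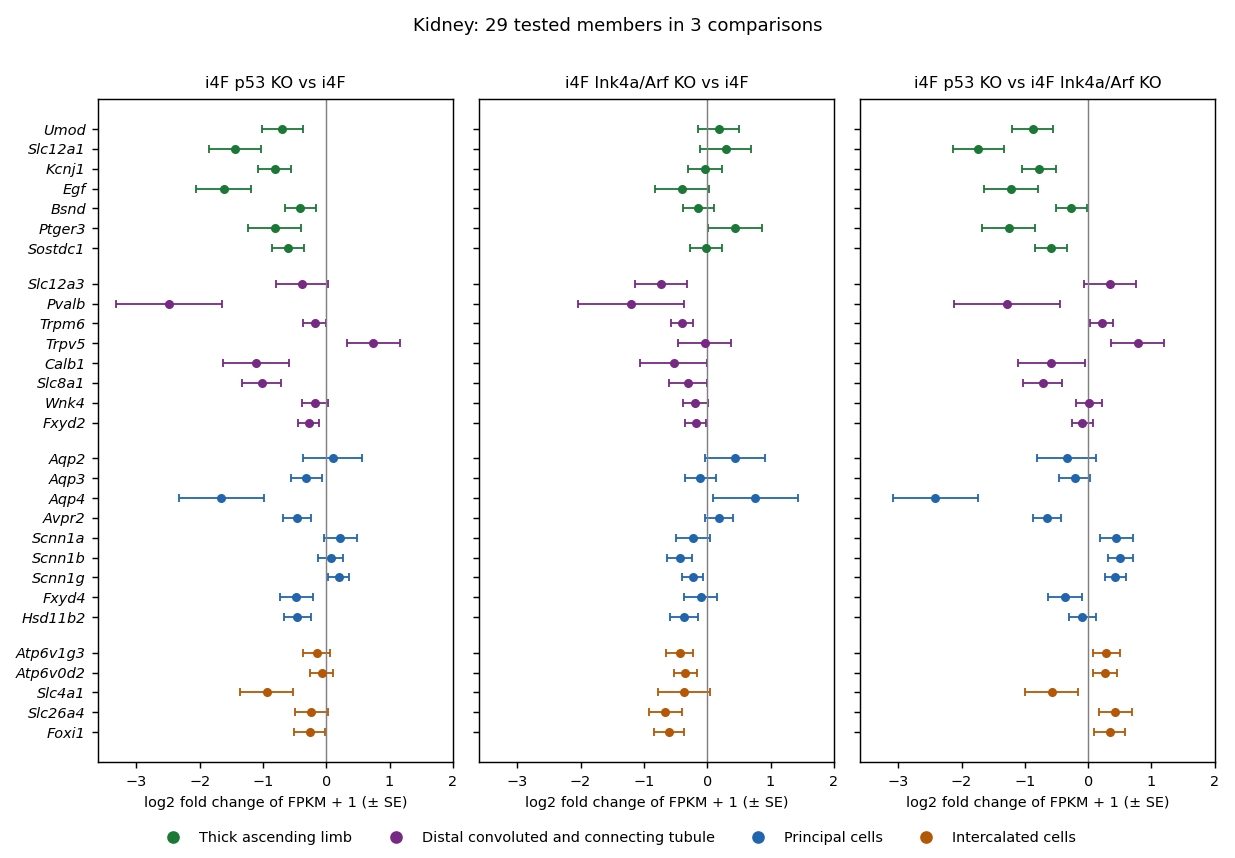
log2 fold change of FPKM + 1 (± SE from limma) of the 29 tested members in 3 kidney comparisons, tested group over the other, coloured by nephron role. The 7 thick ascending limb genes lie left of 0 in both comparisons of p53 KO kidneys and on either side of 0 in Ink4a/Arf KO against i4F.

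The count of 0 members depended on how libraries were weighted. With limma's array weights, which gave weights of 0.168 to 3.65 to the p53 KO kidneys, 8 members were called (Egf, Pvalb, Slc8a1, Kcnj1, Calb1, Hsd11b2 and Slc4a1 lower, Trpv5 higher), while 13.8% of all genes were. The weight fit stopped before it reached its tolerance. With the Xist level as a covariate the median over members was -0.28, among males alone -0.24, and without p53 KO replicate 1 -0.24.

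Markers of other kinds are given beside these values. The summed level of 15 proximal tubule markers ran 7476 to 42086 FPKM in p53 KO kidneys and 22389 to 84409.8 FPKM in i4F kidneys, which overlap, and 0 of the 15 were called. The summed level of 10 tubule injury markers ran 1076 to 13249 FPKM in p53 KO kidneys and 476 to 2181 FPKM in i4F kidneys, and 9 of 9 tested had positive estimates. Of these, 1 was called: C3, a complement protein, rose (3.19; limma, adjusted p = 0.0262). Of 4 tested neutrophil markers 3 rose (S100a8, S100a9 and Retnlg), and the summed level of the 6 measured was 58.3 to 171 FPKM in p53 KO kidneys and 13.6 to 24.5 FPKM in i4F kidneys. The part of these in the values of the distal members was not tested.

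**Figure D4:**
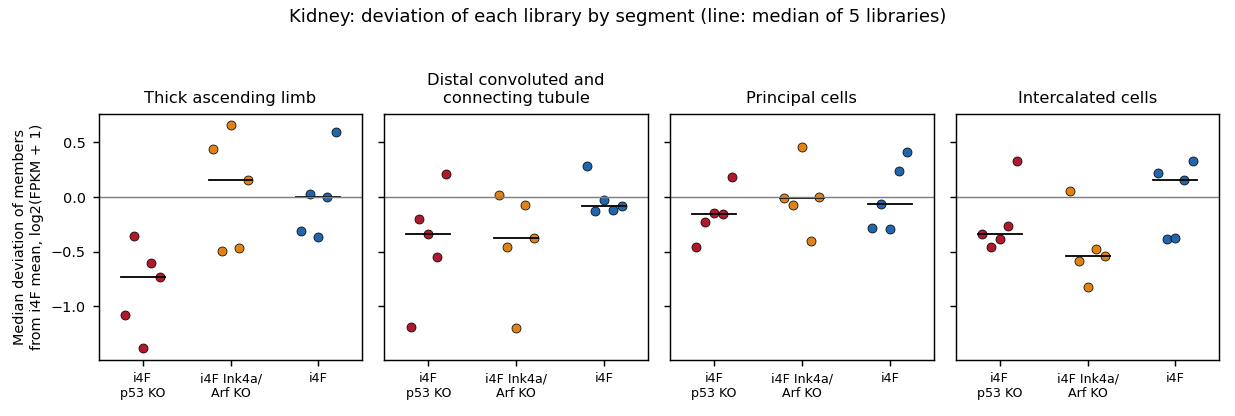
Median deviation of the members of each nephron role from their i4F mean, in log2(FPKM + 1), with 1 point per kidney library and a line at the median of 5. The thick ascending limb panel has all p53 KO kidneys below 0, between -1.39 and -0.35, and both other groups on either side of 0.

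By library, the median deviation of the thick ascending limb members from their i4F means was -1.08, -0.35, -1.39, -0.60 and -0.73 in p53 KO kidneys, 0.44, -0.50, 0.66, -0.46 and 0.16 in Ink4a/Arf KO kidneys and -0.31, 0.03, -0.37, 0.00 and 0.60 in i4F kidneys. All p53 KO kidneys were below 0, and replicate 2 overlapped the lowest i4F kidneys. In p53 KO replicate 5 the median was above 0 in the 3 other roles, at 0.21 for distal convoluted and connecting tubule, 0.18 for principal cell and 0.33 for intercalated cell members, and it was the only p53 KO kidney with a positive median in any role.

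In i4F Ink4a/Arf KO kidneys against i4F kidneys, no gene passed the test. Of 12431 genes tested 0 were called (0%), with 398 at an unadjusted p under 0.05 by limma (3.2%), and 0 of 29 members were called. Of the members 4 had an unadjusted p under 0.05: Trpm6 (-0.40), Scnn1b (-0.44), Slc26a4 (-0.66) and Foxi1 (-0.60), each with an adjusted p of 0.997. With 1 library left out, this number ran from 0 (without Ink4a/Arf KO replicate 3 or i4F replicate 5) to 7 (without Ink4a/Arf KO replicate 1). The highest i4F values of Foxi1 were those of the females of that group. The estimate was negative for 23 of 29 members, against 51% of all genes, with a median of -0.22. All 8 distal convoluted and connecting tubule genes (median -0.35) and all 5 intercalated cell genes (-0.43) were negative, and the thick ascending limb was divided, 4 negative and 3 positive (-0.02).

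Slc26a4 averaged 20.04 ± 7.26 FPKM in Ink4a/Arf KO and 31.1 ± 6.87 FPKM in i4F kidneys, and its lowest value, 9.83 FPKM, was in Ink4a/Arf KO replicate 3. That library also had the lowest values of its group for Pvalb (0.261 FPKM), Slc12a3 (45.7 FPKM), Calb1 (19.2 FPKM) and Slc8a1 (2.68 FPKM). It had the highest of all kidneys for Slc12a1 (449 FPKM), Aqp2 (341 FPKM), Aqp4 (27.0 FPKM) and Avpr2 (17.4 FPKM). The summed level of 10 inner medulla and papilla markers was 209 FPKM in it, against 44.4 to 98.6 FPKM in the other 4 Ink4a/Arf KO kidneys and 32.0 to 103 FPKM in i4F kidneys. The urothelial and basal keratin transcripts Krt5 (21.3 FPKM), Krt14 (6.66 FPKM) and Upk1b (4.58 FPKM) were also at their highest there. Upk3a, another urothelial transcript, was at 2.86 FPKM there, below its 3.08 FPKM in p53 KO replicate 4. That p53 KO library also held 9.42 FPKM of Krt5 and 3.97 FPKM of Upk1b, with an inner medulla and papilla sum of 59.0 FPKM. The part of the sampled region in these values was not tested.

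In i4F p53 KO against i4F Ink4a/Arf KO kidneys, which share their libraries with the 2 comparisons above, 33 of 12431 genes were called (0.265%) and 0 of 29 members. In limma, 11 members reached an unadjusted p under 0.05, against 18% of all genes. The thick ascending limb was again negative throughout (7 of 7, median -0.88), while 4 of 5 intercalated cell genes were positive (0.28). Over all members 18 of 29 were negative, against 44.5% of all genes.

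Slc12a1 had the smallest p of the members. It averaged 77.4 ± 35.9 FPKM in p53 KO and 268 ± 138 FPKM in Ink4a/Arf KO kidneys without overlap between them, a difference of -1.73 (SE 0.40; limma, adjusted p = 0.0825). Aqp4 averaged 1.98 ± 2.21 FPKM in p53 KO and 13.5 ± 8.53 FPKM in Ink4a/Arf KO kidneys (-2.42, SE 0.67; limma, adjusted p = 0.121). Ptger3 averaged 10.5 ± 3.73 FPKM in p53 KO and 29.9 ± 17.7 FPKM in Ink4a/Arf KO kidneys (-1.26; limma, adjusted p = 0.167). Scnn1g went the other way without overlap, at 17.6 ± 3.28 FPKM in p53 KO and 12.7 ± 1.52 FPKM in Ink4a/Arf KO kidneys (0.43, SE 0.17; limma, adjusted p = 0.210). Of all genes, 1.54% lay without overlap lower and 1.92% higher, against 1 and 1 of the 29 members.

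Here too the call turned on libraries. Without p53 KO replicate 2, Slc12a1 and Aqp4 were called (limma, adjusted p = 0.0306 and 0.0466), and without the libraries above 100 FPKM of Clps, Slc12a1 alone was (limma, adjusted p = 0.045). The fit without the Clps libraries keeps only replicates 1 and 5 of the p53 KO kidneys. Array weights called 9 members, 4 higher and 5 lower, with 26.7% of all genes called. Pancreatic acinar markers summed to 121 to 1313 FPKM in p53 KO kidneys and 32.1 to 129 FPKM in Ink4a/Arf KO kidneys. The estimate of Slc12a1 was -1.90 without the Clps libraries.

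Other genes of the same segments, from lists outside the 30, gave no call in any kidney comparison. In p53 KO against i4F kidneys, 8 of 9 tested further thick ascending limb genes were negative (median -0.49), 11 of 13 distal convoluted and connecting tubule genes (-0.14), 4 of 13 principal cell genes (0.07) and 13 of 15 intercalated cell genes (-0.24). Cldn10, a claudin of the thick ascending limb, averaged 104 ± 37.9 FPKM in p53 KO and 192 ± 41.3 FPKM in i4F kidneys, with the smallest p of these lists (-0.93, SE 0.22; limma, adjusted p = 0.0904). Among 15 transcription factors of the distal nephron 10 were negative and none was called. Irx1, a factor of the thick ascending limb, averaged 8.67 ± 4.78 FPKM in p53 KO and 19.4 ± 6.61 FPKM in i4F kidneys (limma, adjusted p = 0.239). In Ink4a/Arf KO against i4F kidneys, 14 of 15 further intercalated cell genes were negative (-0.34), beside 5 of 5 members. For comparison, 12 of 15 proximal tubule genes were negative in p53 KO against i4F kidneys (median -0.43), with 0 called.

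Relations between members were computed for 6 pairs across the 15 kidneys, on log2(FPKM + 1), with permutation tests of 100000 resamples (two-sided) and p adjusted over the 6. Umod and Slc12a1 followed each other, with r = 0.85 (permutation test, adjusted p = 0.00042) and rho = 0.81 (adjusted p = 0.00114). Their relation held with group means removed (r = 0.75, adjusted p = 0.012) and without the 2 libraries farthest from the median of Umod (r = 0.82). Slc26a4 and Foxi1 had r = 0.79 (permutation test, adjusted p = 0.00186) and rho = 0.87 (adjusted p = 0.00048), with r = 0.69 when group means were removed and 0.78 without the 2 libraries farthest in Slc26a4.

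The other 4 pairs were weaker. Aqp2 and Fxyd4 had r = 0.58 (permutation test, adjusted p = 0.0458) and rho = 0.56 (adjusted p = 0.0652), with r = 0.66 when group means were removed (adjusted p = 0.0141) and 0.52 without 2 libraries (adjusted p = 0.106). Slc12a3 and Pvalb had r = 0.53 and rho = 0.50 (permutation test, adjusted p = 0.0568 and 0.0891), with r = 0.56 when group means were removed (adjusted p = 0.0451), 0.57 after scaling (adjusted p = 0.0368) and 0.59 with a pseudocount of 0.1 (adjusted p = 0.0343). Without the 2 libraries farthest in Slc12a3 the r of this pair was 0.02, so the relation rests on them. Slc4a1 and Foxi1, both of intercalated cells, had r = 0.35 and rho = 0.42 (permutation test, adjusted p = 0.248 and 0.142). Umod and Aqp2, from different segments, had r = 0.27 and rho = 0.20 (permutation test, adjusted p = 0.325 and 0.477). Without 2 libraries the r of Umod and Aqp2 was 0.56 (adjusted p = 0.0914).

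In the pancreas the libraries labelled p53 KO stood apart from the i4F libraries in most genes. Of 10781 genes tested 10070 were called (93.4%), 9827 of them higher, and the median log2 fold change over all genes was 1.58. The acinar marker sum was 1469 to 228833 FPKM in the libraries labelled p53 KO and 238788 to 414333 FPKM in i4F. Only 8 of the 29 members were tested, and 6 were called, a share below that of all genes. Members that passed the filter through the p53 KO libraries alone had to differ, so their number says nothing about the list. After median-of-ratios scaling, which sets the median gene near 0, 5 of 7 tested members were called, 3 higher and 2 lower, with 33.5% of all genes called higher and 33.2% lower.

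Aqp3, which conducts water and glycerol and is also found in stratified epithelia, measured 25.9, 29.7, 17.9, 3.60 and 7.65 FPKM in pancreas labelled p53 KO. It was at 0 to 0.0678 FPKM in Ink4a/Arf KO and 0 to 0.145 FPKM in i4F pancreas. It passed the filter only through the 5 libraries labelled p53 KO, where it had to be high, so its p is no support and no fit without one of them tests it. It rose by 3.76 (SE 0.38; limma, adjusted p = 2.82e-07) and by 2.49 after scaling. Scnn1a measured 27.0, 19.5, 12.3, 2.99 and 22.9 FPKM in the libraries labelled p53 KO, 0.366 to 1.05 FPKM in Ink4a/Arf KO and 0.355 to 0.682 FPKM in i4F pancreas. Of its 6 libraries at 1 FPKM or more, 5 are labelled p53 KO and the other is an Ink4a/Arf KO library at 1.05 FPKM. With no i4F library at 1 FPKM, Scnn1a passed the filter mainly through the libraries where it is high, and its p is no support either. It rose by 3.34 (SE 0.38; limma, adjusted p = 8.65e-07) and by 1.82 after scaling.

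Elf5 measured 23.6, 24.7, 9.63, 2.18 and 7.03 FPKM in the libraries labelled p53 KO, 0.0229 to 0.0531 FPKM in Ink4a/Arf KO and 0.0229 to 0.190 FPKM in i4F pancreas. Like Aqp3 it passed the filter only through these 5 libraries, with the same limit on its p. It rose by 3.36 (SE 0.40; limma, adjusted p = 1.24e-06) and by 2.11 after scaling. For all 3 genes every library labelled p53 KO lay above every i4F library, as did 73% of all genes tested, and replicate 4 was the lowest of the 5. These levels of Elf5 exceed the highest kidney value, 3.43 FPKM, in 4 of the 5 libraries. Krt14, a basal keratin, was 30.4 to 245 FPKM in the same libraries, against 0 to 0.363 FPKM in i4F pancreas, and Cdh1, an epithelial cadherin, was 48.8 to 191 FPKM, against 10.02 to 15.9 FPKM. Their part in the rise of Aqp3, Scnn1a and Elf5 was not tested.

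**Figure D5:**
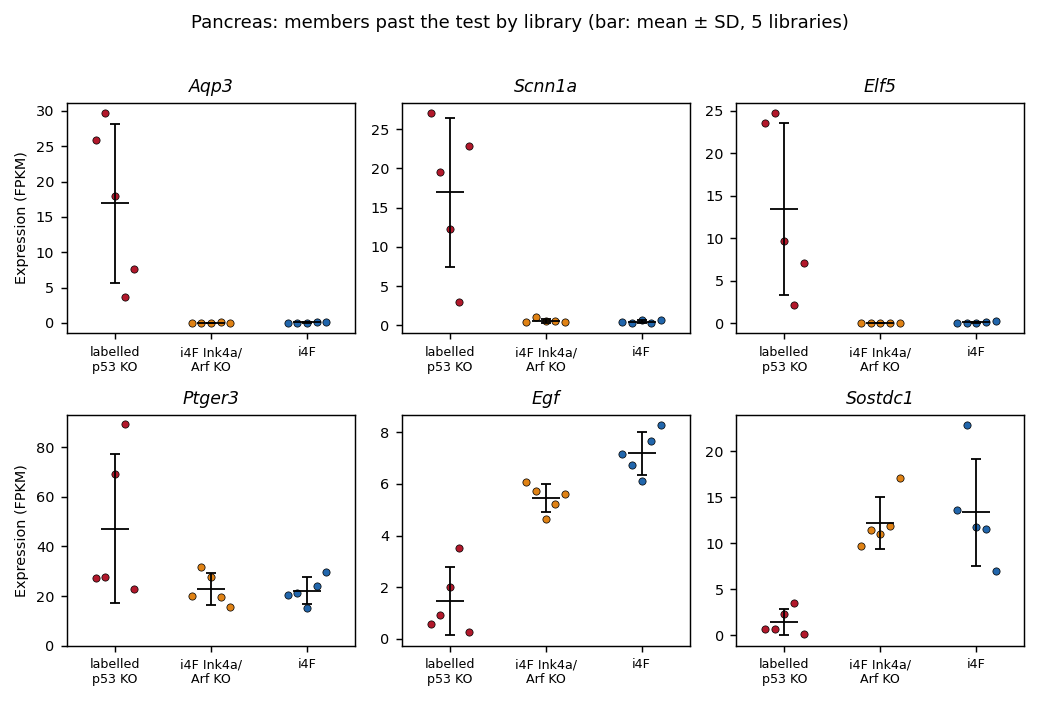
FPKM of the 6 called members in the 15 pancreas libraries, with points for libraries and bars for mean ± SD of 5. Aqp3, Scnn1a and Elf5 of the libraries labelled p53 KO lie above all other pancreases, Egf and Sostdc1 lie below all of them, and Ptger3 overlaps.

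Egf and Sostdc1 fell. Egf measured 0.577, 0.930, 2.01, 3.52 and 0.280 FPKM in pancreas labelled p53 KO, 4.65 to 6.06 FPKM in Ink4a/Arf KO and 6.10 to 8.27 FPKM in i4F pancreas. The log2 fold change was -1.88 (SE 0.27; limma, adjusted p = 7.23e-06) and -2.89 after scaling. Sostdc1 measured 0.607, 0.623, 2.30, 3.52 and 0.0741 FPKM in the libraries labelled p53 KO, 9.74 to 17.1 FPKM in Ink4a/Arf KO and 6.95 to 22.8 FPKM in i4F pancreas. Its log2 fold change was -2.67 (SE 0.35; limma, adjusted p = 2.79e-06) and -3.66 after scaling. Both lay without overlap below i4F, against 1.27% of all genes. For both genes replicates 3 and 4 were the highest of the 5 and replicate 5 the lowest. The acinar marker sum was 139967 and 228833 FPKM in replicates 3 and 4 and 1469 FPKM in replicate 5, and its part in these values was not tested.

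Ptger3 measured 27.3, 27.5, 69.2, 89.3 and 22.8 FPKM in the libraries labelled p53 KO and 20.4, 21.3, 15.02, 23.9 and 29.8 FPKM in i4F pancreas. The groups overlapped, and only replicates 3 and 4 exceeded every i4F library. The rise of 0.87 (SE 0.34; limma, adjusted p = 0.0203) ended after scaling, where the estimate was -1.05 (limma, adjusted p = 0.0877). It also ended without replicate 3 (0.68; limma, adjusted p = 0.0654), without replicate 4 (0.59; limma, adjusted p = 0.0623) and without i4F replicate 3 (0.75; limma, adjusted p = 0.0554), and with the Xist level as a covariate (0.82; limma, adjusted p = 0.0608). Fxyd2 and Umod were tested and not called (limma, adjusted p = 0.116 and 0.409). Fxyd2 was called higher with array weights (limma, adjusted p = 0.000741) and with the replicate number as a block (limma, adjusted p = 0.0473). It was also called without Ink4a/Arf KO replicate 5 (limma, adjusted p = 0.0433) and without i4F replicate 5 (limma, adjusted p = 0.0206), and in no other alternative.

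The 21 members below the filter were mostly near 0 in pancreas. With no filter, 18 of 29 members were called and 16 of them were higher in the libraries labelled p53 KO, against 73.6% of all genes. Scnn1b averaged 0.972 ± 0.486 FPKM in the libraries labelled p53 KO and 0.165 ± 0.112 FPKM in i4F pancreas. Slc8a1 averaged 1.27 ± 0.787 FPKM in the libraries labelled p53 KO and 0.0929 ± 0.0958 FPKM in i4F pancreas. Slc12a1, Kcnj1, Bsnd, Slc12a3, Foxi1 and Atp6v1g3 stayed at or under 0.219 FPKM in all pancreases. Slc4a1 was at 12.9 FPKM in Ink4a/Arf KO replicate 1 and at or under 0.867 FPKM in the other 14 pancreases. In that library Alas2, which was at 13.0 FPKM, was also the highest of all pancreases. The part of red cell precursors in this Slc4a1 value was not tested.

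Genes of the same segments outside the 30 were also called in the libraries labelled p53 KO. Of principal cell genes 8 of 8 tested rose, led by Mal, a membrane sorting protein (6.88, and 5.27 after scaling), Tspan8, a tetraspanin (5.50, and 3.92 after scaling), and Krt8, a simple epithelial keratin (4.02, and 1.99 after scaling). Of distal convoluted and connecting tubule genes 7 of 8 rose, among them S100g, a calcium-binding protein (3.95, and 2.46 after scaling), and 1 fell. Of intercalated cell genes 5 of 5 rose, among them Car12, a carbonic anhydrase (2.63, and 1.52 after scaling). Of distal transcription factors 4 of 4 tested rose, with Ehf, an epithelial ETS factor, at 3.14 (1.37 after scaling) and Grhl2 at 1.28, which was -0.06 after scaling. Of thick ascending limb genes 1 of 2 rose (Stk39, a kinase; 1.17, and -0.65 after scaling) and Cldn10 fell (-1.46, and -3.24 after scaling). After scaling, the counts higher and lower were 5 and 1 for principal cell genes, 5 and 2 for distal convoluted and connecting tubule genes, 2 and 1 for intercalated cell genes, 2 and 1 for transcription factors and 0 and 2 for thick ascending limb genes. As 93.4% of all genes were called before scaling, the unscaled counts say nothing particular to the lists. After scaling, 33.5% of all genes were called higher and 33.2% lower. Any listed gene that passed the filter through the libraries labelled p53 KO alone had to differ, so the scaled counts are no result about the lists either.

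In i4F Ink4a/Arf KO against i4F pancreas 0 of 10781 genes were called (0%), 36 reached an unadjusted p under 0.05 in limma, and 0 of 8 tested members were called. The spread in this fit was estimated with the libraries labelled p53 KO included. From the 2 groups alone, 121 genes and 1 member reached that p in limma, with 0 called. Array weights called 286 genes and 0 members. Egf averaged 5.45 ± 0.540 FPKM in Ink4a/Arf KO and 7.18 ± 0.837 FPKM in i4F pancreas, without overlap between the groups (-0.34, SE 0.27; limma, adjusted p = 1). Of all genes 0.186% were lower without overlap, and of the 8 members 1. Its fold change in the Ink4a/Arf KO kidneys was -0.40 (SE 0.43; limma, adjusted p = 0.997).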

How the data were processed

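Gene levels were deposited by the authors as FPKM, 1 table per tissue, from stranded poly(A) libraries per the labels' protocols. The submitters' processing notes name TopHat2 2.0.10, Bowtie 1.0.0, SAMtools 0.1.19, Cufflinks 2.2.1 and build mm10. Whether libraries were scaled further is not given in the sources used here. No 2 libraries held identical values.

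Each tissue's 15 libraries were fitted together by limma 3.58.1 (R 4.3.3; eBayes with trend, no covariate) on log2(FPKM + 1) values, over genes at 1 FPKM or more in at least 5 libraries. Tests were two-sided, with Benjamini-Hochberg adjusted p under 0.05 over all genes tested. The p-values measure the spread between mice within groups, estimated over all groups of the tissue together. A group outside a comparison thus also enters its p. Fold changes on this scale understate changes of genes near 1 FPKM. Positions come from GENCODE M21 (GRCm38). The fit was tested on simulated data.

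The members, lists and tests were chosen with earlier results of these data known. By rule, each library's value is given for the 2 members with the smallest p per role in kidney i4F p53 KO against i4F and for members called in a kidney comparison; of other lists, at most 3 called genes by p are named. Other genes given in full, the pancreas ones included, were chosen after their values were seen. The erythroid and urothelial genes, and the scaled levels between tissues, were added after seeing the data. Pvalb in pancreas was not analysed here. One of the planned promoter motifs is not reported here.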

Additional observations from a re-analysis of the deposited data

Results flagged for a closer look

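Of 114 groups of 5 values looked at, 12 had a library that stood apart from the other 4 by Dixon's criterion, which chance flags in about 1 of 20 groups. In kidney p53 KO replicate 5, Trpm6 was at 2.97 FPKM, Scnn1a at 89.8 FPKM and Atp6v1g3 at 36.8 FPKM, each the highest of its group. In kidney p53 KO replicate 4 Scnn1g was at 23.2 FPKM. In kidney Ink4a/Arf KO replicate 1 Scnn1a was at 50.2 FPKM. In kidney i4F replicate 1 Trpm6 was at 3.09 FPKM and Slc8a1 at 14.5 FPKM.

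In pancreas Ink4a/Arf KO replicate 5, Umod was at 2.76 FPKM, Sostdc1 at 17.1 FPKM and Fxyd2 at 6.56 FPKM, and in pancreas i4F replicate 5 Umod was at 2.02 FPKM. Cdh16, a tubule cadherin, was at 0.457 FPKM in this Ink4a/Arf KO library and at 0.364 FPKM in this i4F library, above all other pancreases; the part of kidney RNA in these values was not tested. In pancreas Ink4a/Arf KO replicate 2 Scnn1a was at 1.05 FPKM.

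Slc8a1 was without overlap in opposite directions in the tissues. Every p53 KO kidney lay below every i4F kidney (log2 fold change -1.02), and every pancreas library labelled p53 KO lay above every i4F pancreas. The pancreas direction is that of most genes: Slc8a1 was below the test filter there, its estimate with no filter was 0.99 against a median of 0.94 over all genes, and 73.6% of all genes were called higher. The difference between the tissues was not tested.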

How the results depend on the processing

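The number of called members was 0 in each kidney comparison, and in kidney Ink4a/Arf KO against i4F it stayed 0 under all 27 alternatives tried. In kidney p53 KO against i4F it was 8 with array weights and 0 to 1 with a library left out (1 without p53 KO replicate 2). In kidney p53 KO against Ink4a/Arf KO it was 9 with array weights, 1 without the libraries above 100 FPKM of Clps and 0 to 2 with a library left out (2 without p53 KO replicate 2). Here and below, fits without the Clps libraries keep only replicates 1 and 5 of the p53 KO kidneys. In pancreas p53 KO against i4F it was 6, and 18 with no filter, 3 with a filter of 5 FPKM and 3 to 7 with a library left out; fewer libraries leave fewer members past the filter. The median over members stayed negative throughout, from -0.49 to -0.24 in kidney p53 KO against i4F and from -0.43 to -0.05 in p53 KO against Ink4a/Arf KO, the last value being without p53 KO replicate 1. Kidney Foxi1 reversed to 0.0533 with the Xist covariate, 0.17 without the Clps libraries and 0.12 in males, and pancreas Ptger3 to -1.05 with median-of-ratios scaling and -0.97 with quantile normalization; the cause was not tested. Of kidney and pancreas levels, 20 members were without overlap as deposited and 25 after scaling. Each tissue was scaled by itself, so the scaled levels share no common scale and the second count is no check of the first.

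The replicate numbers did not pair libraries (3 of 5 pairs over r = 0.1 in kidney p53 KO against i4F, -0.0789 to 0.291, and fewer in the others). With the replicate block the number of called members was 0 in the kidney comparisons and 7 in pancreas p53 KO against i4F, where Fxyd2 was added. Over all genes, calls in kidney p53 KO against i4F numbered 32, and 17 with the block, 62 with median-of-ratios scaling, 71 with quantile normalization, 244 with the Xist covariate, 13 from the 2 groups alone, 270 without the Clps libraries, 1721 with array weights, and 7 (without i4F replicate 3) to 166 (without p53 KO replicate 2) with a library left out. In p53 KO against Ink4a/Arf KO they numbered 33, and 16 with the block, 12 with no filter, 51 with a filter of 5 FPKM, 61 with a pseudocount of 0.1, 67 with median-of-ratios scaling, 150 with quantile normalization, 313 with the Xist covariate, 5 from the 2 groups alone, 58 in males, 867 without the Clps libraries, 3321 with array weights, and 9 (without p53 KO replicate 4 or Ink4a/Arf KO replicate 3) to 326 (without p53 KO replicate 2) with a library left out. In pancreas p53 KO against i4F they numbered 10070 of 10781 tested, and 4825 of 5176 with a filter of 5 FPKM. With median-of-ratios scaling they numbered 6897 of 10347 there, and with quantile normalization 7231 of 10781. In Ink4a/Arf KO against i4F, where the main count was 0, array weights called 2 genes in kidney and 286 in pancreas, and other alternatives at most 1 in kidney and 2 in pancreas. FPKM without counts give no depth for single genes, which limits values near 0.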
